A study of Arabidopsis thaliana with 8 samples.

Results

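The genes described here are 6 nuclear genes of the plastid thiol redox network of Arabidopsis thaliana: FTRB (AT2G04700), NTRC (AT2G41680), PRK (AT1G32060), NADP-MDH (AT5G58330), PRXIIE (AT3G52960) and CCS (AT1G12520). They were named with earlier results of these data known, and their probes are those that the platform annotation pairs with that gene and no other, as it does for 691 genes in all. Each of the 6 has 1 probe, and none of their 48 intensities was listed at 0, so all 6 were tested. Total RNA was measured on expression arrays in 4 wild-type (WT) and 4 petc samples, both of the ecotype Landsberg and each numbered 1 to 4. The petc plants are mutants without the Rieske protein, an iron-sulfur subunit of the cytochrome b6f complex, and no other allele or treatment is given in the sources used here. Tissue, age and growth conditions are likewise not given, and nothing says that replicates are separate plants, so each p-value rests on a spread between samples that could be technical.

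In chloroplasts in the light, electrons leaving the cytochrome b6f complex reach photosystem I and then ferredoxin. Ferredoxin-thioredoxin reductase uses reduced ferredoxin to reduce thioredoxins, which in turn reduce disulfides of Calvin cycle enzymes and of NADP-malate dehydrogenase and so switch them on. NTRC is a separate entry to the same thiol network that takes its electrons from NADPH, while peroxiredoxins and superoxide dismutases remove the peroxide and superoxide formed beside photosynthetic electron transport. The comparison of petc with WT asks how transcript levels of these genes differ when the Rieske protein is missing.

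Of the 3439 probes, 2978 to 3009 per sample had a value above 0, and the summed intensity was 3287.4 to 3439.7 per sample in the arbitrary unit of the deposited table. PETC is not analysed here, so the mutated gene gave no check of the labels. None of 18 marker genes of green leaf and of non-green tissue had a single-gene probe, so the tissue was not checked either, and in these bulk samples fewer cells of a type cannot be told apart from less RNA per cell. In every gene below, samples numbered 1 and 2 and samples numbered 3 and 4 of a group are treated as sets, because over all probes the duplicates so formed were alike (a consensus correlation of 0.674 in limma). No label names these sets or says that their samples are duplicates, so the grouping comes from the data. The correlation is given for this split alone.

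PRK, FTRB and CCS were lower in petc, and NTRC was not. In limma with Benjamini-Hochberg adjustment over all 2947 tested probes, 3 of the 6 genes passed the threshold of 0.05, all 3 lower and 0 higher in petc. Over all tested probes 27.9% passed, 15.3% lower and 12.7% higher. That fit took the 8 samples as independent, and the count depended on how replicates were handled. When duplicates of a set counted as correlated readings, 1 of the 6 passed (11.7% of all probes). With the duplicates averaged 0 of the 6 passed, and 0 of all 2947 probes. With the replicate number or the set as a block 5 of the 6 passed (46.6% and 46.1% of all probes). The log2 fold change (petc over WT) was below 0 for 5 of the 6 genes, with a median of -0.50, and below 0 for 51.7% of all tested probes, with a median of -0.02. The values of petc and WT did not overlap for 3 of the 6 genes on the normalised log2 scale, and for 32.7% of the 2911 probes with a value in every sample.

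**Figure D1:**
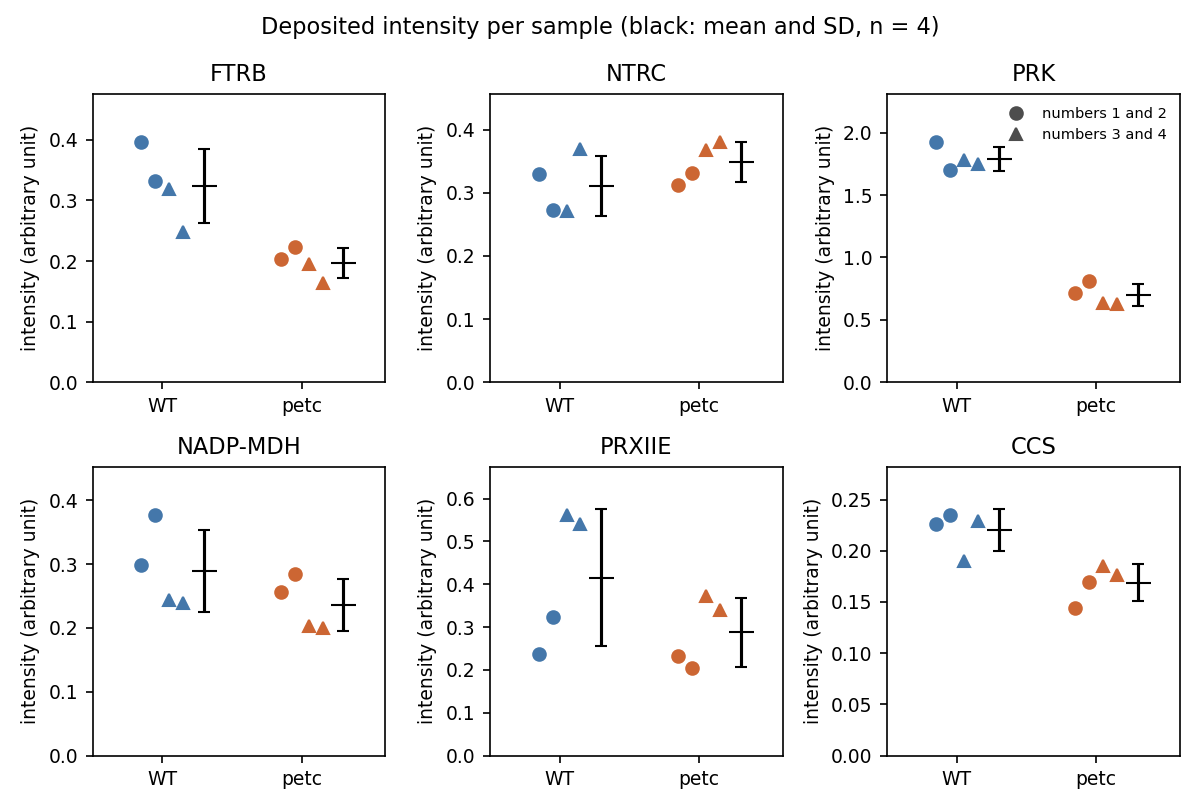
Deposited intensity (arbitrary unit, linear axis from 0) of each of the 6 genes in the 4 WT and 4 petc samples, with numbers 1 and 2 as circles, numbers 3 and 4 as triangles, and the mean and SD in black. PRK, FTRB and CCS are lower in every petc sample than in any WT sample, while NTRC, NADP-MDH and PRXIIE overlap.

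FTRB encodes the catalytic subunit of ferredoxin-thioredoxin reductase, the enzyme that hands electrons from ferredoxin to thioredoxins. Its deposited intensity was 0.397, 0.332, 0.320 and 0.248 in WT samples 1 to 4 and 0.204, 0.224, 0.195 and 0.164 in petc samples 1 to 4. The groups did not overlap, the highest petc sample lying just under the lowest WT sample, number 4. The mean fell from 0.324 ± 0.0612 to 0.197 ± 0.0248 (SD, n = 4), and the normalised log2 fold change was -0.78 ± 0.18 (SE; 95% confidence interval -1.19 to -0.36; limma adjusted p = 0.0137), or 58.3% of WT. FTRB was lower in petc at all 4 numbers, by log2 differences between -0.98 and -0.59. The sets gave nearly the same change, -0.79 for numbers 1 and 2 against -0.77 for numbers 3 and 4. The FTRB probe was dim, brighter than 28.3% of the 2911 probes with a value in every sample. With an offset of 0.1 before log2 the FTRB log2 fold change was -0.54 (limma adjusted p = 0.0253). The FTRB call was lost where the samples of a group and set were taken as correlated readings (limma adjusted p = 0.1185) or averaged, 2 against 2 (0.197). In the averaged fit 0 of all 2947 tested probes passed. The adjusted p of FTRB ranged from 0.00132 to 0.197 across the alternatives.

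NTRC encodes the NADPH-dependent reductase that carries its own thioredoxin domain and in plastids reduces peroxiredoxins and other thiol proteins. Its intensity was 0.330, 0.272, 0.271 and 0.369 in WT samples 1 to 4 and 0.312, 0.332, 0.367 and 0.381 in petc. The groups overlapped, WT numbers 1 and 4 lying within the petc range. The mean was 0.348 ± 0.0316 in petc against 0.311 ± 0.0479 in WT (SD, n = 4), and the log2 fold change of 0.13 ± 0.12 (SE) did not pass (limma adjusted p = 0.5002). The 95% confidence interval of -0.15 to 0.40 corresponds to 90.3% to 132.0% of WT, which leaves room for a small change in either direction. At numbers 2 and 3 petc was higher, by 0.30 and 0.33 on the log2 scale, and at numbers 1 and 4 it was lower, with log2 differences of -0.07 and -0.05, although the deposited petc value at number 4 was the higher one.

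The balance of the ferredoxin-dependent and the NADPH-dependent route was followed as the normalised log2 value of FTRB minus that of NTRC in each sample. Brightness of different probes is not comparable, so its sign in a sample has no meaning and only its difference between groups is read. It was 0.26, 0.30, 0.21 and -0.55 in WT samples 1 to 4 and -0.65, -0.59, -0.90 and -1.25 in petc samples 1 to 4. All petc values were below all WT values, but WT number 4 stood close to petc numbers 1 and 2 and apart from the other WT samples. The mean was 0.06 ± 0.40 in WT and -0.85 ± 0.30 in petc (SD, n = 4), a difference of -0.90, or a ratio of FTRB to NTRC 1.87-fold lower in petc. The log2 fold change was -0.78 for FTRB and 0.13 for NTRC, so most of this difference is the fall of FTRB over again. The exact two-sided permutation test gave p = 0.0286, the smallest that 4 against 4 samples allow.

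The size of this difference was -0.90 for numbers 1 and 2 against -0.91 for numbers 3 and 4, and petc was lower at all 4 numbers, with differences of -1.11 to -0.71. The permutation p did not stay under 0.05 in 11 of the 19 alternatives run. Without any 1 of the petc samples it was 0.0571, with labels exchanged within sets 0.0556 and within replicate numbers 0.125, these last being the smallest that those exchanges allow. With the values as deposited WT number 4 had a ratio of FTRB to NTRC of 0.672 and petc number 2 one of 0.675, so that the groups overlapped, and the difference of -0.88 had an exact permutation p of 0.0571. Without WT number 4 the difference was -1.09 (exact permutation p = 0.0286). The difference was below 0 in all 19 of these, but changes of probe filter, block or duplicate averaging could not move it from -0.90. The filters also repeated the same permutation test. The difference says nothing on whether NTRC kept its level.

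**Figure D2:**
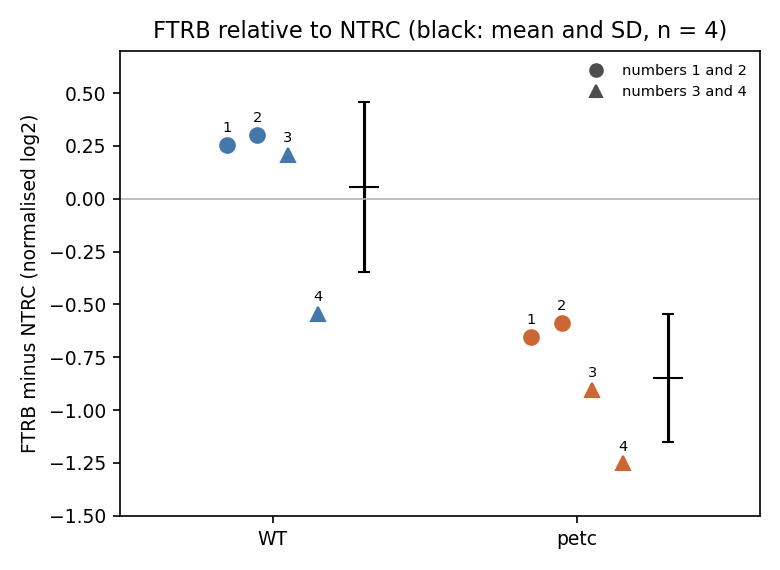
Normalised log2 value of FTRB minus that of NTRC in each sample, labelled with its replicate number, for 4 WT and 4 petc samples, with the mean and SD in black. The petc samples lie between -1.25 and -0.59, and WT number 4 at -0.55 lies apart from the other WT samples at 0.21 to 0.30.

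PRK encodes phosphoribulokinase, which uses ATP to make ribulose bisphosphate, the acceptor of carbon dioxide, and is switched on when thioredoxin reduces it. Its intensity was 1.93, 1.70, 1.78 and 1.75 in WT samples 1 to 4 and 0.713, 0.814, 0.631 and 0.624 in petc. These groups were far apart, the highest petc sample being under the lowest WT sample by more than the range of either group. PRK had the strongest fall of the 6 genes, to 36.04% of WT (95% confidence interval 29.4% to 44.2%), which was rank 10 among the falls of 595 tested single-gene probes and rank 53 among all 2947. The log2 fold change was -1.47 ± 0.13 (SE, n = 4 per group; limma adjusted p = 0.000135). The sets gave -1.31 for numbers 1 and 2 against -1.63 for numbers 3 and 4. The PRK call was lost only with the duplicates averaged, 2 against 2 (limma adjusted p = 0.0755), a fit in which 0 of all 2947 probes passed. The adjusted p of PRK ranged from 2.83e-05 to 0.0755 across the alternatives.

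NADP-MDH encodes the plastid NADP-dependent malate dehydrogenase, which, once reduced by thioredoxin, turns oxaloacetate into malate and so lets reducing equivalents leave the chloroplast. Its intensity was 0.298, 0.377, 0.243 and 0.239 in WT samples 1 to 4 and 0.256, 0.285, 0.203 and 0.200 in petc. The groups overlapped, because numbers 1 and 2 were brighter than numbers 3 and 4 in WT and in petc alike, with set differences of -0.48 and -0.53 on the log2 scale. The mean was 0.289 ± 0.0643 in WT and 0.236 ± 0.0412 in petc (SD, n = 4), and the log2 fold change of -0.36 ± 0.20 (SE) did not pass (limma adjusted p = 0.243). Between samples of the same number petc was lower in all 4 cases, at 75.5% to 85.8% of the deposited WT value. With the replicate number as a block the same log2 fold change had an SE of 0.07 and passed (limma adjusted p = 0.00908; 0.00908 to 0.595 over all alternatives). Its main interval, -0.82 to 0.11, lay above that of PRK, -1.77 to -1.18, and the difference between both genes was not tested.

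SBPASE, which encodes the Calvin cycle enzyme sedoheptulose bisphosphatase, also a thioredoxin target, was listed at 0 in all 8 samples and could not be tested. No other gene of the list of 16 plastid enzymes regulated through thioredoxin had a single-gene probe. Of the 2 tested, PRK passed as lower, and NADP-MDH, also below 0, did not pass. None passed as higher, and over all tested probes 15.3% passed as lower.

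PRXIIE encodes a plastid type II peroxiredoxin, which reduces hydrogen peroxide and organic peroxides through a reactive cysteine. Its intensity was 0.237, 0.323, 0.561 and 0.540 in WT samples 1 to 4 and 0.233, 0.205, 0.372 and 0.340 in petc. Numbers 3 and 4 were brighter than numbers 1 and 2 in both groups, by a log2 difference of 0.95 among WT and 0.61 among petc samples, and both set differences were larger than the difference between petc and WT. The mean was 0.415 ± 0.160 in WT and 0.287 ± 0.0811 in petc (SD, n = 4), and the log2 fold change of -0.54 ± 0.30 (SE; 95% confidence interval -1.24 to 0.16) did not pass (limma adjusted p = 0.237). The sets gave -0.37 for numbers 1 and 2 against -0.71 for numbers 3 and 4. Petc was lower at all 4 numbers, but by a log2 difference of -0.06 at number 1 against -0.75 to -0.67 at the others, and the gene passed once the replicate number was a block (limma adjusted p = 0.0235; 0.0106 to 0.568 over all alternatives).

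SRX, which encodes sulfiredoxin, the enzyme that repairs overoxidised peroxiredoxins, was the other measured gene among the 20 peroxiredoxins, glutathione peroxidases, glutaredoxins and methionine sulfoxide reductases listed. Its intensity was 0.237, 0.208, 0.201 and 0.172 in WT samples 1 to 4 and 0.281, 0.254, 0.210 and 0.212 in petc. At every number petc was the brighter one, at 104.4% to 123.2% of the deposited WT value, while the groups overlapped, but at number 3 the normalised log2 difference was -0.07. The log2 fold change over all samples was 0.16 ± 0.16 (SE), which did not pass (limma adjusted p = 0.527), and 0 of the 2 genes of the list passed in either direction, where 27.9% of all tested probes passed.

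CCS encodes the copper chaperone that loads copper into copper/zinc superoxide dismutases of the cytosol and the plastid. Its intensity was 0.226, 0.235, 0.190 and 0.229 in WT samples 1 to 4 and 0.144, 0.170, 0.185 and 0.176 in petc. The groups did not overlap, but WT number 3 and petc number 3 were close, the petc value being 97.4% of the WT value. The mean fell from 0.220 ± 0.0203 to 0.169 ± 0.0179 (SD, n = 4), and the log2 fold change was -0.47 ± 0.10 (SE; 95% confidence interval -0.71 to -0.23; limma adjusted p = 0.0110), or 72.2% of WT. The sets gave -0.58 for numbers 1 and 2 against -0.36 for numbers 3 and 4. The call was lost in numbers 3 and 4 alone (limma adjusted p = 0.0899), with the duplicates as correlated readings (0.152) and with the duplicates averaged (0.254). In the averaged fit 0 of all 2947 tested probes passed. The adjusted p of CCS ranged from 0.00518 to 0.254 across the alternatives. CCS was the dimmest of these probes, brighter than 19.5% of the 2911 probes with a value in every sample. It was not tested where the dimmest 25% were left out. With an offset of 0.1 before log2 the CCS log2 fold change was -0.29 (limma adjusted p = 0.00872). None of the other 15 superoxide dismutase and copper delivery genes listed, its client enzymes included, had a single-gene probe.

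**Figure D3:**
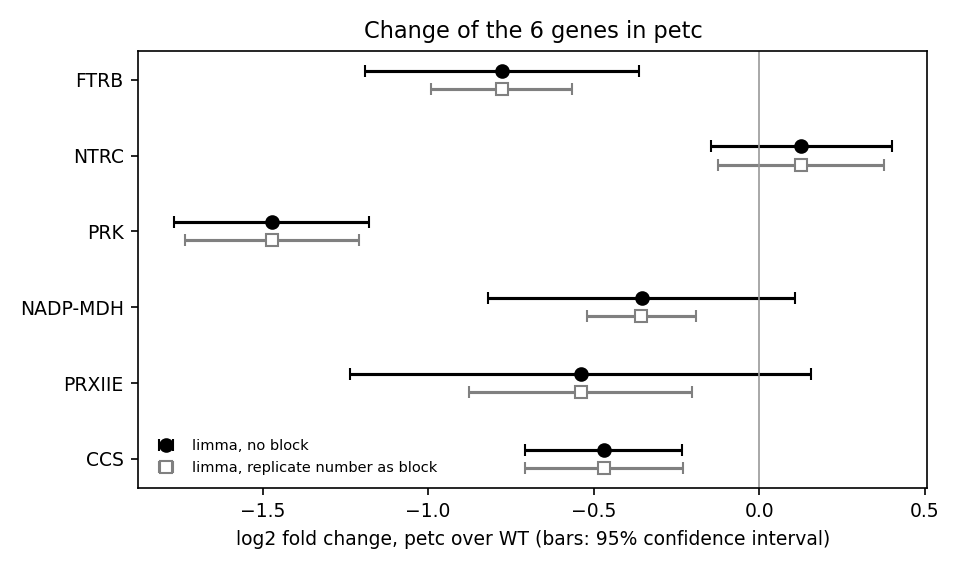
Log2 fold change of petc over WT for each of the 6 genes, with 95% confidence intervals, in limma without a block (black circles) and blocked by replicate number (grey squares). The intervals of NADP-MDH (-0.82 to 0.11) and PRXIIE (-1.24 to 0.16) include 0 without the block and lie below 0 with it, and that of NTRC includes 0 in both fits.

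Set side by side, 5 of the 6 genes were lower in petc at all 4 replicate numbers, and NTRC was lower at 2 of 4. The share of all tested probes lower at all 4 numbers is not given here, so this count has no background to be read against. PRK had the widest gap, with log2 differences of -1.63 to -1.14, followed by FTRB at -0.98 to -0.59. The ranges of the other 3 genes overlapped each other and, for CCS and PRXIIE, that of FTRB, with NADP-MDH at -0.41 to -0.25, CCS at -0.67 to -0.19 and PRXIIE at -0.75 to -0.06. NADP-MDH was the most even of these across numbers, although its level differed most between the sets apart from that of PRXIIE. With the replicate number as a block, 5 of the 6 genes passed, all 5 lower, where 46.6% of all tested probes passed.

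**Figure D4:**
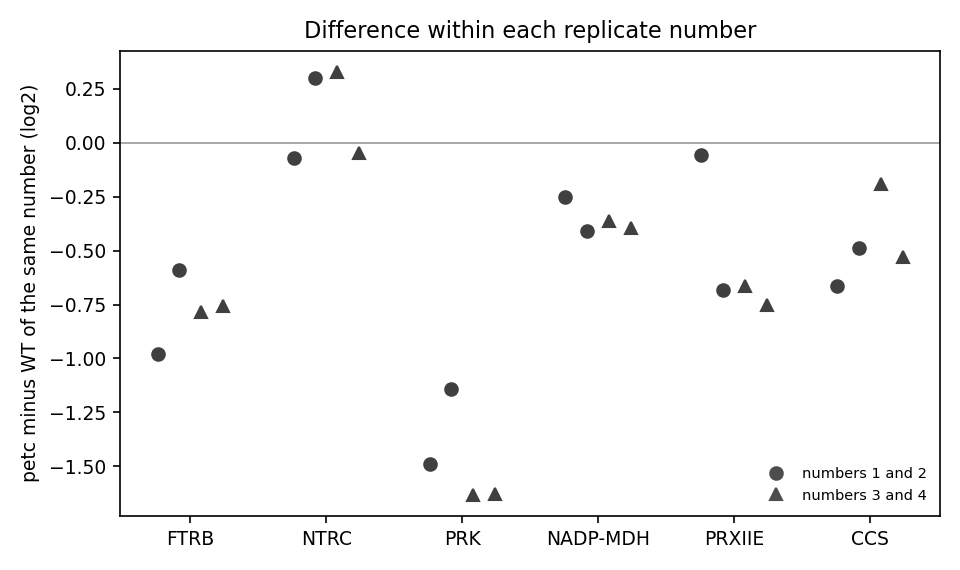
Normalised log2 value of petc minus that of the WT sample with the same number, for each of the 6 genes, with numbers 1 and 2 as circles and numbers 3 and 4 as triangles. All points of PRK lie between -1.63 and -1.14, and only NTRC has points above 0.

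**Figure D5:**
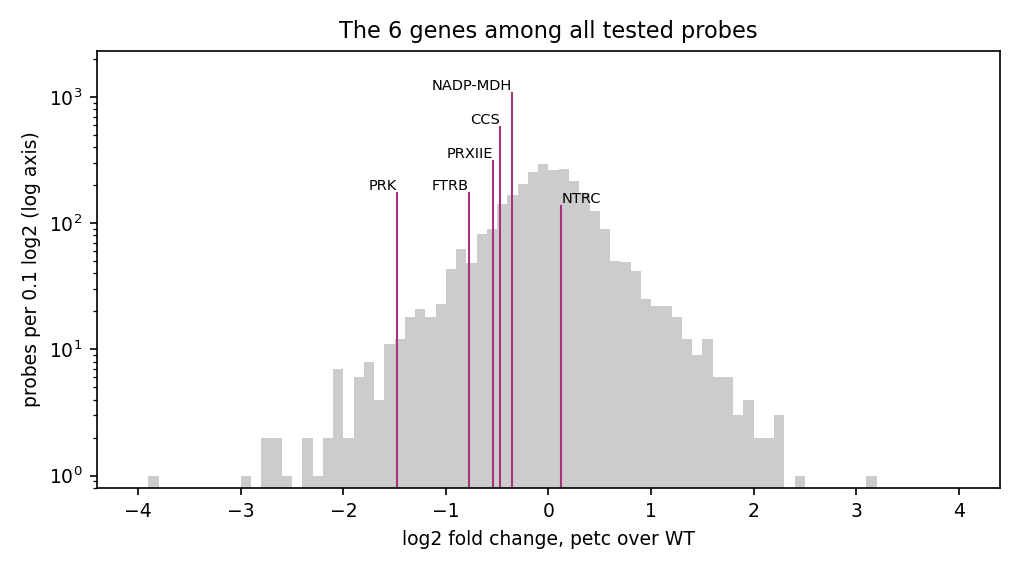
Number of tested probes (log axis) by log2 fold change of petc over WT in steps of 0.1, with the 6 genes marked by lines. PRK at -1.47 lies in the lower tail, FTRB at -0.78 below 91.2% of all tested probes, and NTRC at 0.13 near the centre.

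Of the 137 genes of 10 pathway lists (ferredoxin and its reductases, plastid thioredoxins, NADPH-thioredoxin reductases and NADPH supply, thioredoxin-regulated enzymes, other Calvin cycle enzymes, the malate valve, thiol peroxidases, superoxide dismutases and copper delivery, the ascorbate cycle, and alternative electron flow), 8 had a single-gene probe. These were the 6 described, SRX and SBPASE, the last listed at 0 in all 8 samples. None of the 21 plastid thioredoxins and thioredoxin-like proteins, which link both reductases to their targets, was among them, nor any of the 7 ascorbate cycle genes, the 5 of alternative electron flow or the 14 other Calvin cycle genes. The variable subunit of ferredoxin-thioredoxin reductase is not analysed here, so the ferredoxin-dependent route rests on FTRB alone and the NADPH-dependent route on NTRC alone.

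The genes whose pattern over the 8 samples was most like each of the 6 were found by Pearson r of normalised log2 values among 581 other single-gene probes with all values. This likeness takes in the difference between petc and WT as well as that between the sets, and with 8 samples many probes reach high values. PRK was most like AT4G34310 (r = 0.99), AT4G16490 (0.99) and AT3G09050 (0.98), which were also lower in petc, by log2 fold changes of -1.56, -0.77 and -1.06. FTRB was most like AT5G03370 (r = 0.98), AT3G52550 (0.98) and AT2G03200 (0.96), and CCS like AT4G14380 (0.96), AT3G56010 (0.95) and AT2G28755 (0.95), and all of these passed in limma as lower in petc. NADP-MDH followed AT5G19900 (r = 0.98), AT2G28200 (0.94) and PSB27 (0.94), an assembly factor of photosystem II, and PRXIIE followed AT3G51500 (0.97), AT3G13150 (0.97) and AT1G69910 (0.97), none of which passed. The closest genes to NTRC, AT1G05860 (r = 0.79), AT2G22050 (0.78) and AT1G31790 (0.76), were less alike.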

How the data were processed

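RNA of 8 samples was measured on arrays. The deposited table holds 1 value per probe and sample, treated here as a linear intensity in an arbitrary unit. The fold changes and percentages of WT rest on that treatment. What the authors did to make these values, background correction and scaling included, is not given in the sources used here. Probes were named through GEO's platform annotation (692 with 1 gene, 870 with several, 1877 with none), and 690 of the 692 were found in RefSeq, assembly TAIR10.1. The lists of genes and the 6 members were chosen with earlier results of these data known.

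Values of 0 were treated as missing, the others were taken to log2 and, because column medians differed by up to 0.131, put through quantile normalisation. The 2947 probes that kept 3 or more values per group were fitted in R 4.3.3 with lmFit and eBayes of limma 3.58.1, with Benjamini-Hochberg adjustment. The limma fit and the permutation were run on simulated data with independent noise in each sample. Those data had no likeness between duplicates and were not quantile normalised, so they do not test how either was handled. The number of arrays limits the precision. Figures were drawn with matplotlib 3.10.9.

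Alternatives changed the scaling, the log offset, the filters, the variance model and the treatment of replicates and sets, and left out each sample in turn. The FTRB and NTRC difference was tested by exact permutation of the group labels over 70 arrangements. Genes named are the 6, up to 4 measured members of each list, and the 3 most like each of the 6.

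Same-numbered samples of both groups deviated together from their group means (Pearson r of 0.542 to 0.623 across probes, in all 4 pairs), so an alternative fit took the number as a pairing of the samples. The pairing comes from the data, as no label says what a number marks. Within a set but between numbers r was 0.369 to 0.442.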

Additional observations from a re-analysis of the deposited data

Results flagged for a closer look

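WT replicate 4 stood apart from the other WT samples in the normalised log2 value of FTRB minus NTRC, at -0.55 against 0.21 to 0.30. It had the lowest FTRB and the highest NTRC intensity of the WT samples. Of 16 groups of 4 samples checked, over the 6 genes, SRX and the difference, this was the 1 that stood out. Chance flags about 1 in 20, or 0.8 of the 16, so 1 flag is close to what chance gives. The difference is also not independent of FTRB and NTRC, which are among those checked.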

How the results depend on the processing

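The count of 3 members lower in petc stayed at 3 without each sample in turn (3 to 3), where 21.5% to 24.9% of all probes passed. It was also 3 under every scaling, offset, filter on missing values and variance model tried, where 23.9% to 28.4% passed. With the dimmest 25% of probes left out it was 2 of 5 tested, where 34.7% of all probes passed. In numbers 1 and 2 alone it was 3, where 23.3% of all probes passed. In numbers 3 and 4 alone it was 4, where 35.3% passed, with NADP-MDH and PRXIIE called and CCS not. It was 5 with the replicate block, 5 with the set as a block, 1 with the duplicates as correlated readings and 0 with duplicate means, 2 against 2. Over all probes these fits called 1374, 1358, 345 and 0 (585 at an unadjusted p below 0.05, in limma), against 823. The duplicates correlated at 0.674. The replicate block, with 5 members called, added NADP-MDH and PRXIIE and changed no other call of the 6. The FTRB and NTRC difference kept its direction in all 19 settings run. Changes of probe filter, block or duplicate averaging could not move it from -0.90, and the filters repeated the main permutation test. The difference was -0.88 as deposited and after median centring (exact permutation p = 0.0571). With labels exchanged within the replicate block it was -0.90 (exact p = 0.125), within the set block -0.90 (exact p = 0.0556), both the smallest these allow. In numbers 1 and 2 alone it was -0.90, in numbers 3 and 4 alone -0.91, and with duplicate means -0.90, where no p under 0.333 can be reached. Without each sample in turn it was -1.09 to -0.77 (exact permutation p of 0.0286 to 0.0571, the latter without any of the petc samples). With an offset before log2 it was -0.65. It was not computed with correlated readings or another variance model, which the permutation does not use. No member's fold change turned direction, which a change of probe filter, block, duplicate averaging or variance model could not bring about.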
